A study of Caenorhabditis elegans with 6 samples.

Results

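Long intergenic non-coding RNA genes of Caenorhabditis elegans were followed in RNA of whole adult worms. The members were the loci whose gene symbol starts with linc- and whose gene and position were the same in every deposited table. There were 60 such loci among 15796, carrying 57 symbols, because linc-77, linc-95 and linc-96 have 2 loci each. The worms were Bristol N2 with a wild-type genotype. The strain was kept at 20 °C, RNAi by feeding on plates with 6 mM IPTG, the inducer of the double-stranded RNA in the bacteria, began in L4 larvae, and adults of their progeny were collected. One group of 3 biological replicates was labelled prx-5(RNAi), and the other group of 3 was labelled tag-208(RNAi), a control feeding against the gene now called sorb-1. Both groups were thus fed a targeting RNA, and no unfed worms were analysed here.

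Long non-coding RNAs are made by RNA polymerase II and are often spliced and capped like mRNAs, but they hold no long open reading frame. The intergenic class lies between protein-coding genes, and in worms many of its genes were named in numbered order from transcript catalogues, before a function was known. The prx-5 gene encodes the receptor that carries enzymes into the peroxisome, the organelle that shortens long fatty acids and breaks down hydrogen peroxide.

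The fed genes were checked first. The prx-5 level was 14.9, 21.3 and 23.5 FPKM in the libraries labelled prx-5 RNAi, against 4.48, 4.73 and 3.50 FPKM in the control libraries. FPKM are fragments scaled by length and by the depth of the library. The fold change of prx-5 was 1.98 ± 0.22 on the log2(FPKM + 1) scale (SE, limma with Benjamini-Hochberg adjustment, adjusted p = 0.00866). The RNA of the gene named by the label was thus higher and not lower, so every direction below is that of the libraries labelled prx-5 RNAi, and a knockdown cannot be read from them. For sorb-1, the levels were 13.6, 14.8 and 25.6 FPKM in the libraries labelled prx-5 RNAi and 11.5, 12.9 and 6.96 FPKM in the controls (0.72 ± 0.31, limma adjusted p = 0.232).

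Among cell type markers, 10 of 12 intestinal genes were called higher in libraries labelled prx-5 RNAi (limma adjusted p under 0.05). Of all loci tested, 7.49% were called higher and 1.20% lower. The summed level of the intestinal genes was 3789 to 6820 FPKM in the libraries labelled prx-5 RNAi, against 1132 to 1728 FPKM in controls. Of 5 tested hypodermal genes 2 were called lower (summed 1494 to 1800 FPKM, against 3888 to 4058 FPKM in controls), while the median fold change of the 5 was 0.44. Of 6 body wall muscle genes 1 was called lower (568.1 to 891.3 FPKM, against 1191 to 1360 FPKM). None of 13 germline, 8 oocyte, 8 sperm or 6 neuronal genes passed the test. The sperm genes summed to 49.1 to 109 FPKM in the libraries labelled prx-5 RNAi and to 95.9 to 367 FPKM in the controls, with a median fold change of -1.28. All markers with a locus were above 0 in every library, except 1 body wall muscle gene. In RNA of whole worms, fewer cells of a type and less RNA per cell cannot be told apart, and the part of these shifts in the results for linc- loci was not tested.

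All 60 loci carried the identifier of a gene annotated as lincRNA in WBcel235. They lay on every nuclear chromosome, with 8 on I, 14 on II, 12 on III, 9 on IV, 7 on V and 10 on X. The genes of 26 lay on the plus strand and those of 34 on the minus strand, and 13 genes had a single exon. The deposited loci were short. Their median length was 475 bp (47 to 7698 bp), against 2515 bp for protein-coding loci, and 15% of them were under 200 bp, against 1.03% of protein-coding loci.

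A locus in these tables was often not the annotated gene. The locus covered at least 80% of its gene at 24 of the 60 members and under 20% at 18, with a median of 69.8%. At linc-107 the locus spanned 7698 bp, of which 5.16% was annotated exon of a gene of 397 bp. The first locus of linc-77, the first locus of linc-96 and the locus of linc-130 did not touch the annotated gene at all. Values are therefore given by locus.

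The levels of linc- loci were low. The median of the mean level over the 6 libraries was 4.86 FPKM for the 59 members used, against 8.82 FPKM for all loci used and 10.1 FPKM for protein-coding loci. A mean of at least 1 FPKM was reached by 86.4% of members and by 90.3% of all loci. Of the 60 members, 8 averaged under 1 FPKM, 22 were between 1 and 5 FPKM, 12 between 5 and 10 FPKM, 14 between 10 and 100 FPKM, and 4 were at 100 FPKM or more. Values above 0 in all 6 libraries were listed for 53 members, and the other 7 were listed at 0 in at least 1 library.

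The number of fragments behind these levels could be recovered for 52 members, because their FPKM in the 6 libraries were whole multiples of what 1 fragment is worth, within 0.01 of a fragment. These are the smallest whole numbers that give the FPKM, and a common multiple of them would give the same values. The 52 members held a median of 80.5 fragments over the 6 libraries together (19 to 963). For 20 of them the total was under 60 fragments, and 25 had fewer than 5 fragments in at least 1 library.

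The same fragment was worth very different levels. In control replicate 1, a single fragment stood for 0.0136 FPKM at linc-1 and for 375 FPKM at linc-168. Its median worth was 5.17 FPKM at the 9 members under 200 bp and 0.162 FPKM at the longer ones. Across the 52 loci, length and the worth of a fragment had a Spearman correlation of -0.81, while mean FPKM and total fragments had one of 0.27. The worth of a fragment is set by the scaling of FPKM, so the first value describes the scale and not the RNA. Locus length alone did not fix that worth. In control replicate 1 a fragment was worth 68.3 FPKM at linc-135 (2699 bp) and 0.0981 FPKM at linc-72 (1375 bp).

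**Figure D1:**
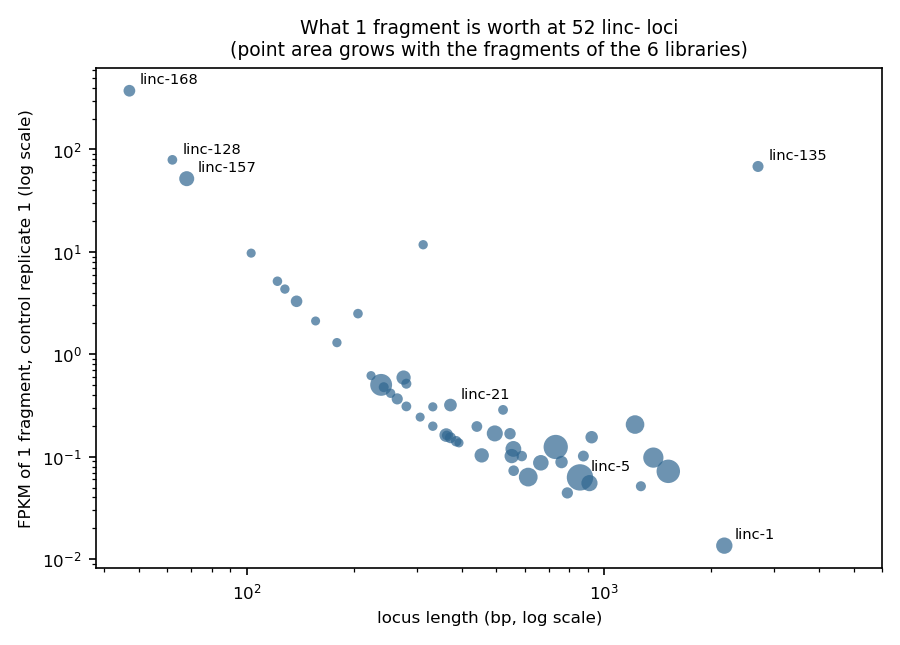
FPKM of 1 fragment in control replicate 1 (y axis, log scale) against locus length in bp (x axis, log scale) for the 52 linc- loci with recovered fragments, the point area growing with the fragments of the 6 libraries. The points at the upper left are linc-168 (47 bp, 375 FPKM per fragment), linc-128 and linc-157, and linc-135 stands apart at the upper right with a locus of 2699 bp.

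The 4 members at 100 FPKM or more held 38 to 240 fragments over the 6 libraries, and 3 of them were under 200 bp. The linc-168 locus (chrV:18649929-18649975, minus strand gene, 47 bp) was listed at 7323, 4000 and 8341 FPKM in the libraries labelled prx-5 RNAi, against 1124, 9513 and 8921 FPKM in the controls. Behind these stood 15, 11 and 28 fragments in the libraries labelled prx-5 RNAi and 3, 28 and 20 in the controls. Control replicate 1 was the lowest of the 6 libraries, and the other 2 controls were above every library labelled prx-5 RNAi. The fold change of 0.45 ± 0.83 did not pass the test (limma adjusted p = 0.780), and it was -0.56 without control replicate 1.

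The linc-157 locus (chrIV:9060779-9060846, plus strand gene, 68 bp) held 37, 26 and 48 fragments in the libraries labelled prx-5 RNAi, against 36, 52 and 41 in the controls. That was 1930 ± 598 FPKM in the libraries labelled prx-5 RNAi and 2283 ± 362 FPKM in the controls (SD, n = 3 each), with limma adjusted p = 0.633. The groups overlapped. The linc-128 locus (chrV:1152717-1152778, plus strand gene, 62 bp) had 8, 7 and 6 fragments in the libraries labelled prx-5 RNAi and 5, 3 and 9 in the controls, for means of 581 ± 227 and 487 ± 326 FPKM (SD, n = 3 each, limma adjusted p = 0.687).

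At linc-135 (chrIV:8453619-8456317, plus strand gene) the locus was long, but 2.37% of it was annotated exon. Its levels were 1334, 729 and 760 FPKM in the libraries labelled prx-5 RNAi, against 1434, 929 and 406 FPKM in the controls, from 15, 11 and 14 fragments against 21, 15 and 5. The groups overlapped throughout (0.15 ± 0.48, limma adjusted p = 0.882). Below these 4 came linc-4 (chrII:6268949-6269570, plus strand gene), with 106, 56.3 and 94.1 FPKM in the libraries labelled prx-5 RNAi and 101, 104 and 107 FPKM in the controls. The controls of linc-4 lay close together, and the libraries labelled prx-5 RNAi reached from well below them into their range (limma adjusted p = 0.475).

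The linc-30 locus (chrI:2046479-2046790, plus strand gene) averaged 52.8 ± 35.3 FPKM in the libraries labelled prx-5 RNAi and 51.4 ± 8.56 FPKM in the controls (SD, n = 3 each). It rested on 2, 3 and 10 fragments in the libraries labelled prx-5 RNAi, against 5, 5 and 3 in the controls. The 2 groups of linc-30 overlapped (limma adjusted p = 0.873).

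Summed over members, FPKM followed these few short loci. The members under 200 bp gave 10798, 6020 and 10860 FPKM in the libraries labelled prx-5 RNAi, against 3584, 12319 and 12364 FPKM in the controls. The longer members together gave 1756, 1068 and 1286 FPKM, against 1901, 1382 and 804.2 FPKM in controls. Of these sums, linc-135 alone made up 1334, 729 and 760 FPKM, against 1434, 929 and 406 FPKM in controls. By fragments the libraries were closer. Divided by the relative depth of each library, the 52 members held 1590, 1399 and 1627 fragments in the libraries labelled prx-5 RNAi and 1598, 1502 and 1241 in the controls. The relative depth itself, taken from the worth of a fragment and set to 1 in control replicate 1, was 0.767, 1.03 and 1.26 for libraries labelled prx-5 RNAi and 1, 1.10 and 0.840 in the controls. Depth therefore varied within both groups. These depths rested on few loci of low FPKM, namely 10, 9 and 5 for the libraries labelled prx-5 RNAi and 7 and 9 for control replicates 2 and 3.

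**Figure D2:**
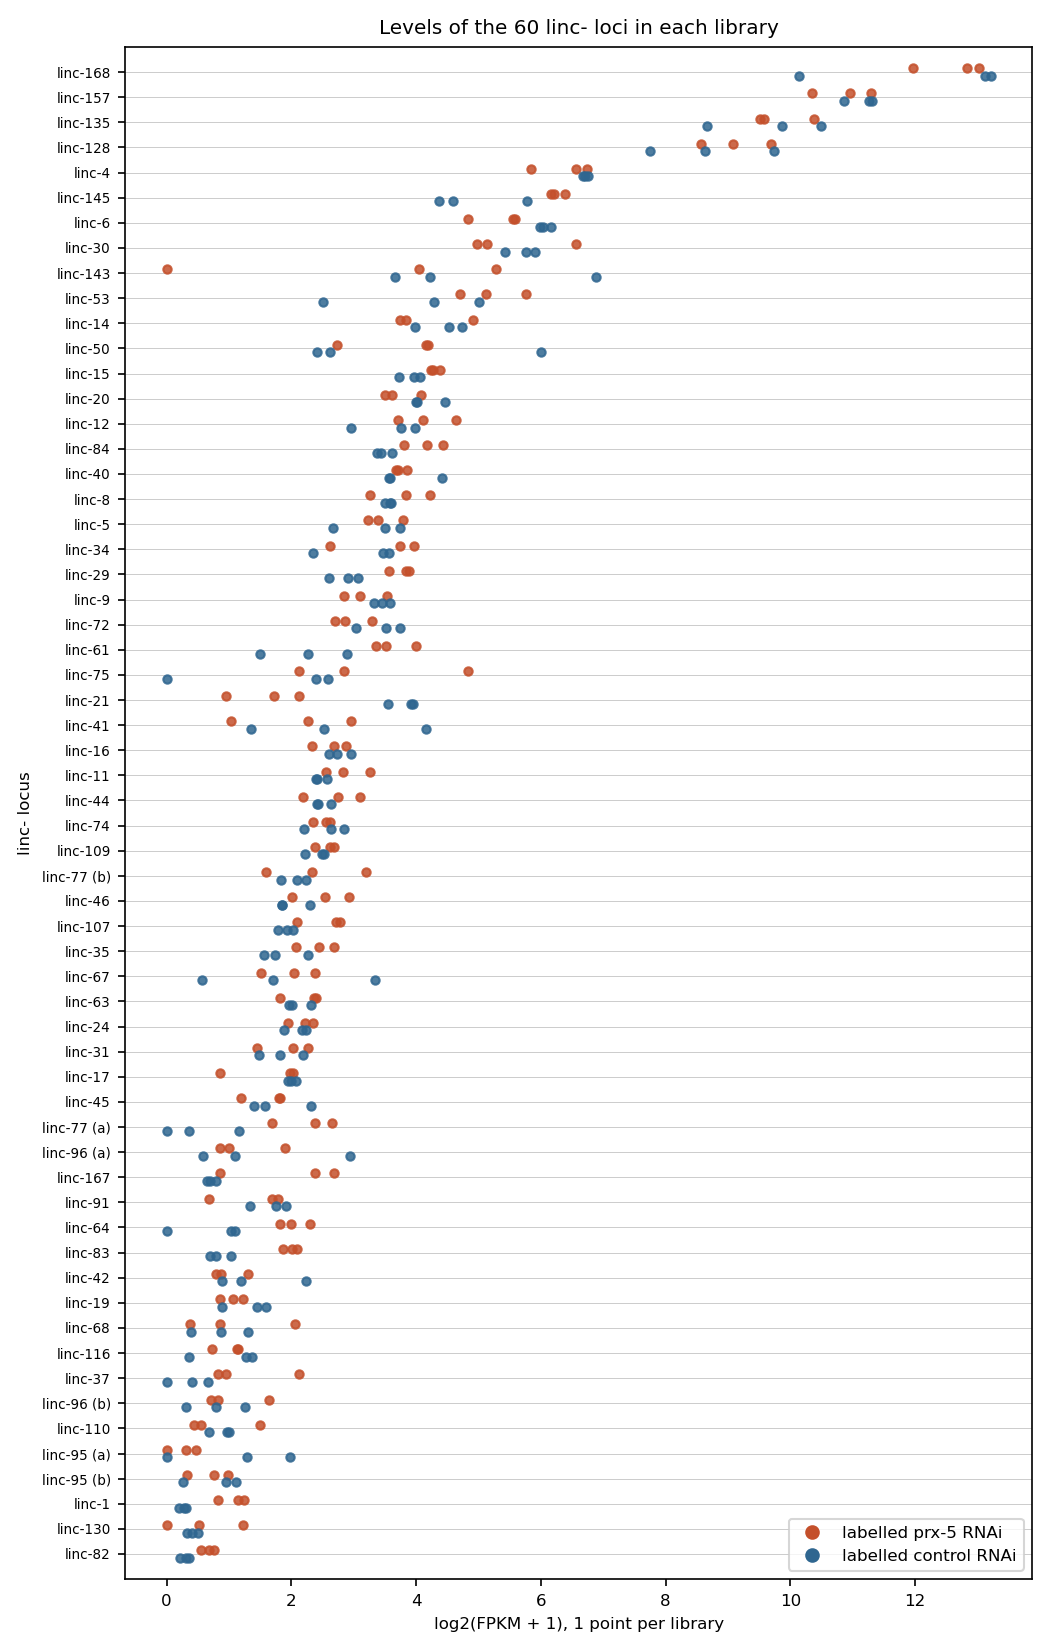
log2(FPKM + 1) of the 60 linc- loci (rows, ordered by mean FPKM) in each of the 6 libraries, 3 labelled prx-5 RNAi (orange) and 3 labelled control RNAi (blue); (a) and (b) mark the 2 loci of 1 symbol by position. Most rows lie below 10 FPKM, and at most rows the colours overlap.

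The 2 groups were then compared at the 51 members with a mean of at least 1 FPKM. Of these, 3 rose (linc-83, linc-29 and the first locus of linc-77) and 1 fell (linc-21) in the libraries labelled prx-5 RNAi, by limma at an adjusted p under 0.05. That is 7.84% of the members tested, against 8.69% of all loci tested (1160 of 13347), so the share of linc- loci called was close to the background. By direction, the background was 7.49% higher and 1.20% lower. The control means of linc-83 (0.802 FPKM) and of the first linc-77 locus (0.507 FPKM) were under 1 FPKM. These loci reached the limit only through the libraries labelled prx-5 RNAi, where they were high. The p-values set the difference between the groups against the spread of libraries within groups, and they cover only these 6 libraries.

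The whole set of fold changes was centred near 0. The median over the 51 members was 0.15, against 0.04 over all loci tested, and the quartiles were -0.27 and 0.52, against -0.21 and 0.47. The median of members was -0.16 under quantile normalization, so its sign depends on the scaling. A positive fold change was seen at 32 of the 51 members (62.7%, against 53.4% of all loci). A change of at least 1 on the log2 scale in either direction was seen at 10 members (19.6%, against 13.3%), of which 7 did not pass the test.

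**Figure D3:**
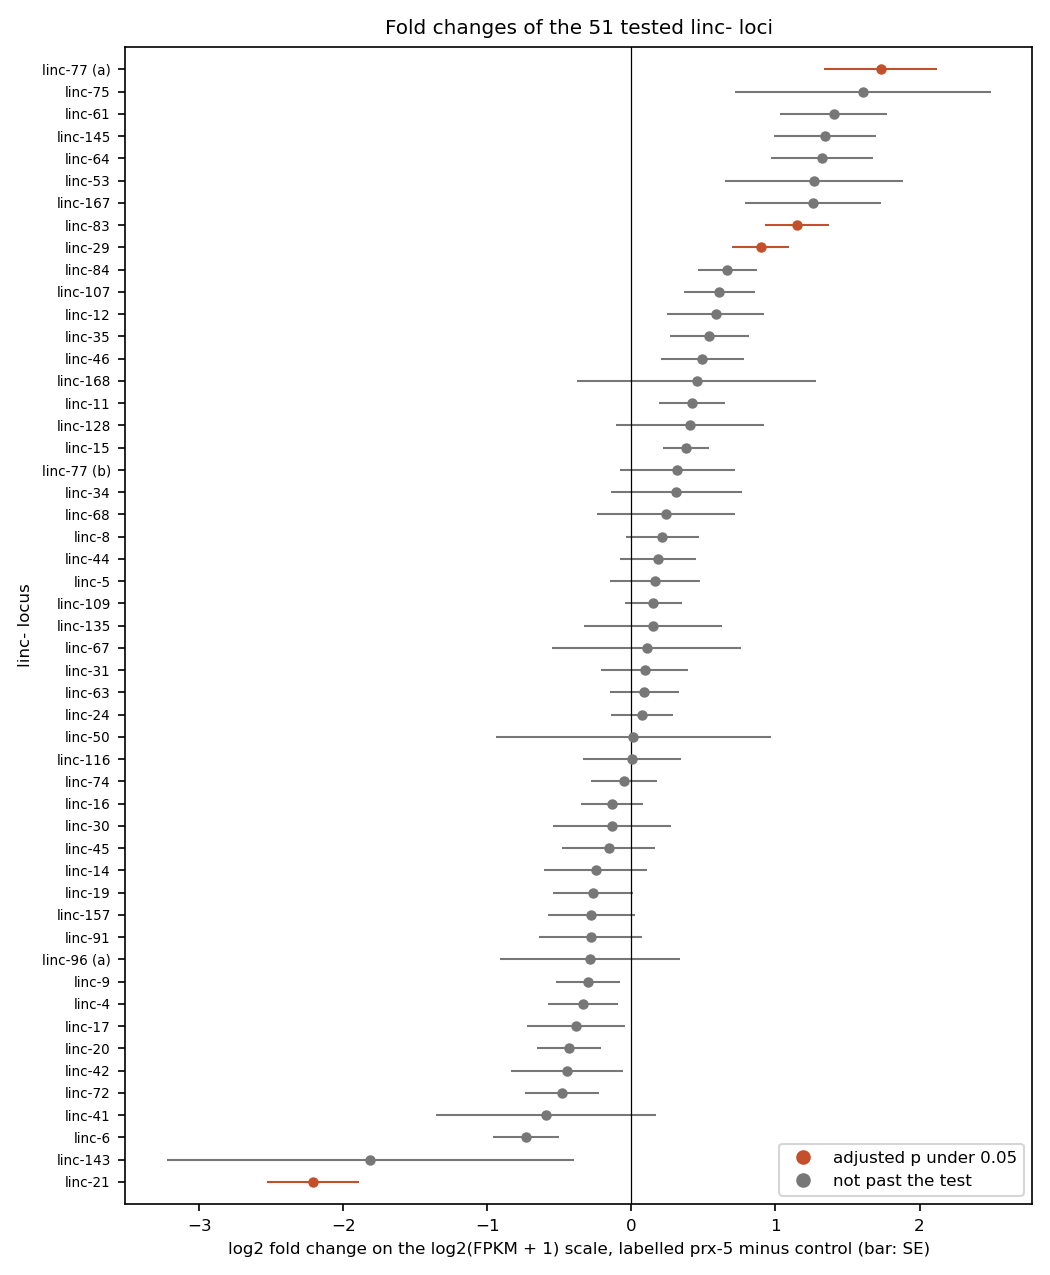
log2 fold change (labelled prx-5 minus control, on the log2(FPKM + 1) scale) of the 51 tested linc- loci, with bars for the SE and colour for an adjusted p under 0.05. The values run from -2.21 at linc-21 to 1.73 at the first locus of linc-77, and several of the widest bars belong to loci that did not pass the test.

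The locus that fell was linc-21 (WBGene00219688, chrIV:4242083-4242454, minus strand gene of 3 exons). Its levels were 3.33, 0.931 and 2.29 FPKM in the libraries labelled prx-5 RNAi, against 14.1, 14.5 and 10.7 FPKM in the controls, from 8, 3 and 9 fragments against 44, 50 and 28. Every library labelled prx-5 RNAi was far below every control library. The fold change was -2.21 ± 0.32 (limma adjusted p = 0.0142), and per depth the fragments had a ratio of 0.158 between the groups (95% exact interval 0.0932 to 0.255, covering counting error only). The mean FPKM was 5.99-fold lower.

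The locus covered 96.9% of the linc-21 gene, and no other annotated gene overlapped it, with piRNA genes left out of the search. The other linc- locus beside it, linc-41, lay 632 bp away on the same strand and had 6.78, 3.79 and 1.03 FPKM in the libraries labelled prx-5 RNAi and 16.9, 4.72 and 1.55 FPKM in the controls. Its groups overlapped, and its fold change was -0.59 ± 0.76 (limma adjusted p = 0.690). In the authors' deposited table, linc-21 had a log2 fold change of -2.74 and a q of 0.0219. Leaving out prx-5 replicate 3, control replicate 1 or control replicate 3 moved the limma adjusted p of linc-21 past the threshold, to 0.0554, 0.0519 and 0.0632, while the fold change stayed between -2.47 and -1.89 over all 6 such fits.

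Of the 3 loci that rose, linc-83 (WBGene00194800, chrX:10474226-10474986, minus strand gene) had the lowest adjusted p. It was listed at 2.66, 3.27 and 3.03 FPKM in the libraries labelled prx-5 RNAi, against 0.621, 1.05 and 0.740 FPKM in the controls, from 23, 38 and 43 fragments against 7, 13 and 7. The groups stood well apart, and the libraries within each were alike. The fold change was 1.15 ± 0.22 (limma adjusted p = 0.0269), the fragments per depth had a ratio of 3.71 (95% exact interval 2.41 to 5.90), and the call was lost under median-ratio scaling (p = 0.0543, limma adjusted), under quantile normalization (0.0503), on the recovered fragments (0.0529) and in 4 of the 6 fits that leave out a library.

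The linc-29 locus (WBGene00189951, chrIV:6353991-6357257, plus strand gene of 3 exons) was higher as well. Its levels were 10.8, 13.3 and 13.7 FPKM in the libraries labelled prx-5 RNAi, against 6.55, 7.43 and 5.04 FPKM in the controls. No library of either group reached the other group, and the mean was 1.99-fold higher. The fold change was 0.90 ± 0.20 (limma adjusted p = 0.0386). Under the authors' scaling constants, median-ratio scaling and quantile normalization the adjusted p of linc-29 was 0.0873, 0.0979 and 0.0842, and it passed in 2 of the 6 fits that leave out a library.

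The first locus of linc-77 (WBGene00219741, chrIV:4059042-4059321) lay outside the annotated linc-77 gene, whose lower end is at position 4059931 and which is on the minus strand. It had 13, 14 and 9 fragments in the libraries labelled prx-5 RNAi, against 4, 1 and 0 in the controls, which the authors' tables give as 5.25, 4.21 and 2.22 FPKM against 1.24, 0.281 and 0 FPKM. The libraries labelled prx-5 RNAi were all above the controls. The fold change was 1.73 ± 0.39 (limma adjusted p = 0.0407), the call held in 7 of 12 other settings, and none of the 6 fits that leave out a library kept it.

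The other linc-77 locus (chrIV:4059938-4060217), which lies in the gene, did not pass the test. It had 4.04, 2.01 and 8.22 FPKM in the libraries labelled prx-5 RNAi and 2.58, 3.28 and 3.69 FPKM in the controls, and the groups overlapped (0.32 ± 0.40, limma adjusted p = 0.684). The 2 loci carry 1 symbol, and a difference between them was not tested.

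The authors' deposited table called 3 of the 59 members used (5.08%, against 13.5% of all loci used), namely linc-1, linc-107 and linc-21, and linc-21 was the only member called in both. At linc-29, linc-77 (first locus) and linc-83 the q in the authors' deposited table was 0.120, 0.225 and 0.0687.

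Groups that did not overlap were found at 12 of the 51 members tested, 10 higher and 2 lower, which is 23.5%, against 27.0% of all loci. By direction the background was 21.2% higher and 5.80% lower. An unadjusted limma p under 0.05 was likewise reached by 12 members (23.5%, against 21.9% of all loci). Beside the 4 called, the 8 members with separate groups were linc-145, linc-61, linc-64, linc-84, linc-167, linc-107 and linc-15 with higher values and linc-6 with lower ones. None of these 8 passed the test, with adjusted p between 0.0642 and 0.224 in limma. Among them, linc-64 and linc-167 had control means of 0.729 and 0.639 FPKM. They reached the limit of 1 FPKM only through the libraries labelled prx-5 RNAi.

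The linc-61 locus (chrV:16043237-16043731, minus strand gene) had 42, 64 and 111 fragments in the libraries labelled prx-5 RNAi, against 38, 25 and 9 in the controls. These gave 9.24, 10.5 and 14.9 FPKM in the libraries labelled prx-5 RNAi and 6.42, 3.83 and 1.81 FPKM in the controls. The groups were separate but spread widely within themselves (1.41 ± 0.37, limma adjusted p = 0.0648), with a fragment ratio per depth of 2.90 (95% exact interval 2.21 to 3.84).

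The linc-145 locus (chrIV:5156485-5156622, minus strand gene, 138 bp) was listed at 73.0, 83.1 and 70.7 FPKM in the libraries labelled prx-5 RNAi, against 23.1, 53.8 and 19.6 FPKM in the controls. Control replicate 2 was the highest of its group, and still below the other group (1.35 ± 0.35, limma adjusted p = 0.0642). The linc-64 locus (chrX:1765257-1765778, plus strand gene) had 8, 14 and 11 fragments in the libraries labelled prx-5 RNAi and 4, 4 and 0 in the controls (1.32 ± 0.35, limma adjusted p = 0.0657).

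At linc-167 (chrI:3125531-3125753, plus strand gene) there were 1, 7 and 11 fragments in the libraries labelled prx-5 RNAi, against 1, 1 and 1 in the controls. The separation of prx-5 replicate 1 from the controls, 0.807 FPKM against at most 0.737 FPKM, was thus between single fragments (1.26 ± 0.47, limma adjusted p = 0.174). The ratio of fragments per depth was 6.10 (95% exact interval 1.80 to 32.2).

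Some of the separate groups differed little. The linc-15 locus (chrX:11991434-11992166, minus strand gene) had 17.8, 19.8 and 18.4 FPKM in the libraries labelled prx-5 RNAi, against 15.7, 14.7 and 12.3 FPKM in the controls, from 799 fragments in all. Its fold change was 0.38 ± 0.16 (limma adjusted p = 0.224), and its fragments per depth had a ratio of 1.31 (95% exact interval 1.13 to 1.51). The reverse was seen at linc-6 (chrX:1982695-1982932, minus strand gene), with 47.2, 27.3 and 46.0 FPKM in the libraries labelled prx-5 RNAi and 64.4, 70.3 and 62.3 FPKM in the controls. All 3 libraries labelled prx-5 RNAi were below the controls of linc-6 (-0.73 ± 0.23, limma adjusted p = 0.104).

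The linc-84 locus (chrI:8865950-8868314, plus strand gene) shared 305 bp of exon with the protein-coding gene F55H12.2 on the same strand, so that fragments of the 2 genes cannot be told apart there. It averaged 16.8 ± 3.76 FPKM in the libraries labelled prx-5 RNAi and 10.1 ± 0.958 FPKM in the controls (SD, n = 3 each; 0.67 ± 0.20, limma adjusted p = 0.0986). The linc-107 locus (chrII:7280171-7287868, minus strand gene) had 3.27, 5.85 and 5.55 FPKM in the libraries labelled prx-5 RNAi, against 2.45, 2.81 and 3.09 FPKM in the controls. The lowest library labelled prx-5 RNAi was just above the highest control of linc-107 (0.61 ± 0.25, limma adjusted p = 0.206), while the authors' deposited table gave 0.68 with q = 0.0453.

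**Figure D4:**
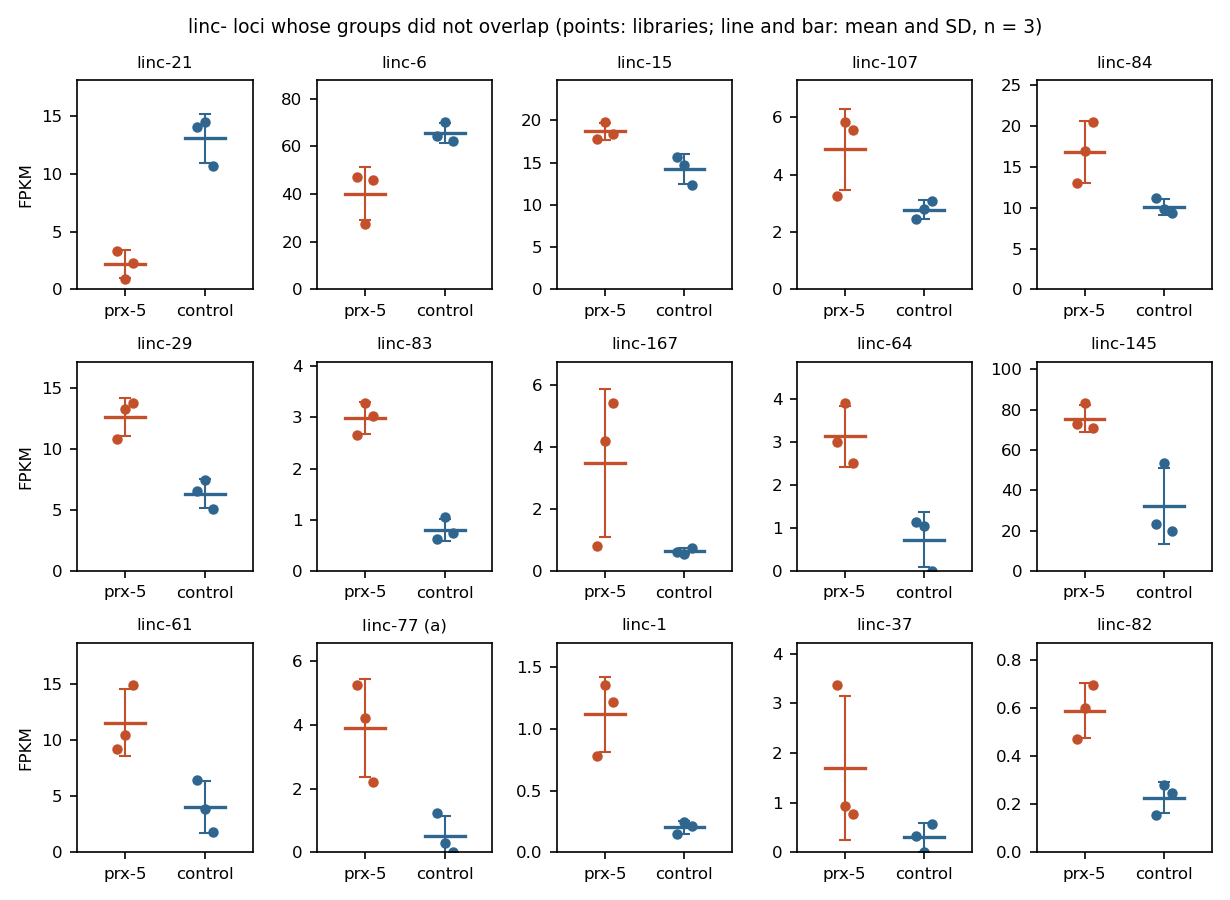
FPKM in each library (points), with the mean and SD of each group (n = 3), for the 12 tested and 3 untested linc- loci whose groups did not overlap, labelled prx-5 RNAi at the left and control at the right of each panel. The gap is wide at linc-21, linc-83 and linc-1, and at linc-167 the lowest prx-5-labelled point is beside the controls.

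The 8 members under 1 FPKM were not tested. They were linc-1, linc-37, linc-82, linc-110, linc-130, both loci of linc-95 and the second locus of linc-96, and they passed or missed this limit by their mean over all libraries. A low FPKM did not mean few fragments at linc-1 (WBGene00194659, chrI:13650566-13652737, plus strand gene). Its 0.777, 1.35 and 1.22 FPKM in the libraries labelled prx-5 RNAi came from 44, 103 and 113 fragments, and its 0.149, 0.246 and 0.210 FPKM in the controls from 11, 20 and 13 fragments.

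Every library labelled prx-5 RNAi of linc-1 was above every control, and the fragments per depth had a ratio of 5.69 (95% exact interval 4.12 to 8.02). In the authors' deposited table the log2 fold change of linc-1 was 2.34 with q = 0.00264. On recovered fragments, an alternative chosen after seeing the data, limma gave 2.38 ± 0.43 with an adjusted p of 0.0171. On FPKM without the limit, where the pseudocount of 1 is larger than 4 of its 6 values, limma gave 0.81 ± 0.22 with an adjusted p of 0.0747. The locus of 2172 bp was 7.23% exon of the annotated linc-1 gene, and 211 bp beyond it on the opposite strand lies rpl-31, a ribosomal protein gene, at 2488 ± 746 FPKM in the libraries labelled prx-5 RNAi and 3623 ± 346 FPKM in the controls (SD, n = 3 each).

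Separate groups were also seen at linc-37 and linc-82, so 3 of the 8 members under 1 FPKM had them, all higher. The share of all loci under this limit with separate groups was not taken, so the count has no background. The linc-37 locus (chrIII:833022-833384, plus strand gene) had 16, 6 and 6 fragments in the libraries labelled prx-5 RNAi, against 2, 0 and 3 in the controls. It lies within zip-2, a gene for a bZIP transcription factor of the response to infection, on the same strand, and shares 40 bp of its exons. The zip-2 locus itself stood at 84.8, 97.2 and 121 FPKM in the libraries labelled prx-5 RNAi and 53.8, 69.3 and 50.5 FPKM in the controls (0.79, limma adjusted p = 0.0525). The linc-82 locus (chrIII:3665064-3666332, plus strand gene) had 7, 12 and 17 fragments in the libraries labelled prx-5 RNAi, against 3, 6 and 4 in the controls.

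Groups overlapped at the 5 other members under the limit. Their highest single value was 2.93 FPKM, at the first locus of linc-95 in control replicate 1, from 12 fragments. One further member, linc-40, was left out because the group value in the authors' table could not be rebuilt from its libraries. It had 13.4, 11.9 and 12.1 FPKM in the libraries labelled prx-5 RNAi, against 20.3, 10.9 and 10.8 FPKM in the controls.

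At several members a single library stood far from the others of its group. The linc-143 locus (chrIII:3035644-3035746, minus strand gene), in an intron of the insulin receptor gene daf-2, was listed at 0, 37.8 and 15.5 FPKM in the libraries labelled prx-5 RNAi, against 117, 17.6 and 11.6 FPKM in the controls. That was 0, 4 and 2 fragments against 12, 2 and 1, with overlapping groups and a fold change of -1.81 ± 1.41 (limma adjusted p = 0.506). The linc-50 locus had 1, 4 and 5 fragments in the libraries labelled prx-5 RNAi and 1, 16 and 1 in the controls. At linc-75 the counts were 10, 3 and 2 fragments in the libraries labelled prx-5 RNAi and 2, 0 and 2 in the controls, for a fold change of 1.61 ± 0.89 (limma adjusted p = 0.351).

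The spread between replicate libraries was described next. The median SD within groups on the log2(FPKM + 1) scale was 0.447 for the 51 members, against 0.278 for the other loci tested. Among loci of at least 200 bp it was 0.381 (42 members) against 0.275, and among loci under 200 bp it was 1.22 (9 members) against 1.30 (234 loci). At like levels, the longer members had 0.426 against 0.353 for other loci between 1 and 5 FPKM, and 0.336 against 0.275 between 5 and 20 FPKM. From 20 FPKM up it was 0.49 (4 members) against 0.246 (5377 loci).

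Counted in fragments, the spread had another order. A dispersion of 1 is what counting error alone gives on average. Members with 10 to 100 fragments had a median dispersion within groups of 2.53 (30 members), against 3.16 for 2224 other loci. With 100 to 1000 fragments the medians were 2.86 (22 members) and 5.54 (3658 loci), at similar median totals of 272 and 298.5 fragments. The dispersion was over 4 at 17 members and under 2 at 19. Its lowest values were 0.381 at linc-82 and 0.505 at linc-83, and its highest was 14.7 at linc-5 (chrX:14018537-14019393), whose 115, 137 and 258 fragments in the libraries labelled prx-5 RNAi and 164, 217 and 72 in the controls overlapped. These medians are descriptions without a test.

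**Figure D5:**
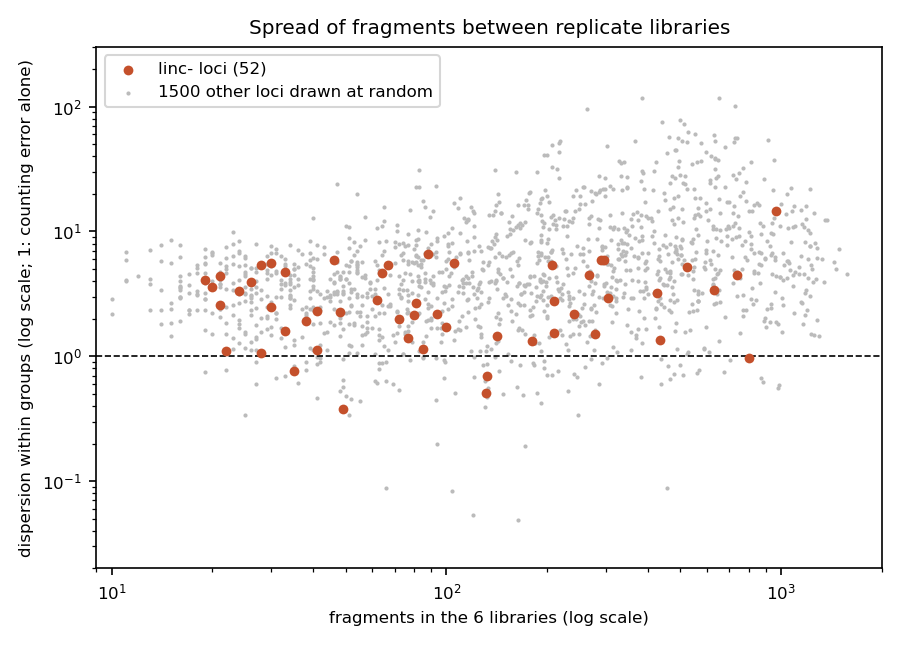
Dispersion of recovered fragments within groups (y axis, log scale, dashed line at 1 for counting error alone) against fragments in the 6 libraries (x axis, log scale) for 52 linc- loci and 1500 other loci drawn at random. The linc- loci lie within the cloud of the other loci, with linc-5 the highest at 14.7.

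Protein-coding genes beside the members were looked up in WBcel235. The nearest gene that did not overlap the linc- locus lay at a median of 1066 bp from it (34 to 11509 bp). Of 118 flanking or overlapping genes, 85 had a locus and 76 could be tested, and 6 of these were called by limma (5 higher and 1 lower), which is 7.89%, against 8.69% of all loci tested. For 41 tested members, the nearest flanking gene that was tested was set beside the member. Genes that overlap the locus, and nearer genes without a test, were not used for these pairs. The fold changes of the pairs had a Spearman correlation of -0.06 and a Pearson correlation of -0.05 (a description over pairs that share the 6 libraries). They had the same sign in 23 pairs.

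None of the called neighbours flanked a called member. They were clec-53, a C-type lectin gene beside linc-63, ceeh-1, an epoxide hydrolase gene beside linc-37, dct-1 beside linc-130, B0252.1 beside linc-35, fbxa-14 beside linc-40, and C49F5.7, which was lower, beside linc-15. The members linc-37, linc-130 and linc-40 were not tested, so a called member could not occur in their pairs. The clec-53 gene, 288 bp from linc-63 on the same strand, had 6.75, 12.0 and 10.8 FPKM in the libraries labelled prx-5 RNAi, against 2.33, 2.86 and 2.74 FPKM in the controls (1.55 ± 0.24, limma adjusted p = 0.0169). The linc-63 locus itself had 2.51, 4.24 and 4.12 FPKM in the libraries labelled prx-5 RNAi and 3.05, 3.96 and 2.90 FPKM in the controls, with overlapping groups (0.09 ± 0.24, limma adjusted p = 0.855).

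Beside linc-21, the collagen gene col-34 (1090 bp away, same strand) had 9.34, 11.5 and 19.2 FPKM in the libraries labelled prx-5 RNAi and 8.36, 19.5 and 8.99 FPKM in the controls (0.15 ± 0.38, limma adjusted p = 0.845). The collagen gene dpy-13 on its other side ranged from 51.4 to 236 FPKM in the libraries labelled prx-5 RNAi and from 5.78 to 196 FPKM in the controls. Beside linc-83, 540 bp away on the opposite strand, elt-4, a small GATA factor gene of the intestine, had 3.00, 3.26 and 2.82 FPKM in the libraries labelled prx-5 RNAi, against 0.671, 1.91 and 2.40 FPKM in the controls. Its groups did not overlap, and its fold change of 0.66 ± 0.30 did not pass the test (limma adjusted p = 0.266). The wrt-5 gene, of the hedgehog-related family, was the tested neighbour of linc-77 (0.03 ± 0.17, limma adjusted p = 0.929), and both neighbours of linc-29 had no locus in the tables.

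In all, 9 members overlapped a protein-coding gene. Strand use in the counting is not given in the sources used here, so fragments of overlapping genes on either strand cannot be told apart at these loci. The same limit holds at linc-5, linc-6, linc-8, linc-15, linc-84 and the second loci of linc-77 and linc-96. Other annotated genes that are not protein-coding overlapped these, with piRNA genes left out of the search. At linc-72 (chrII:8819695-8821069, plus strand gene) the overlapping F46C5.1 lies on the opposite strand with 665 bp of exon in the locus. The linc-72 locus had 5.50, 8.85 and 6.24 FPKM in the libraries labelled prx-5 RNAi and 12.4, 10.5 and 7.24 FPKM in the controls, and F46C5.1 had 6.10, 2.57 and 1.88 FPKM against 0.677, 0.307 and 0.470 FPKM. The fold change was -0.48 ± 0.26 at linc-72 and 1.50 at F46C5.1, and neither passed the test (limma adjusted p of 0.327 and 0.0506). The control mean of F46C5.1 was 0.485 FPKM, so it reached the limit of 1 FPKM only through the libraries labelled prx-5 RNAi.

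Other non-coding RNAs were set beside the members. Of 15 anr- loci, which are antisense RNA genes named from transcript catalogues, 14 were tested. Among these 14, 1 was called (higher), against 8.69% of all loci tested, and their median fold change was 0.01. The called locus, anr-17, rested on 5, 9 and 12 fragments in the libraries labelled prx-5 RNAi, against 2, 3 and 0 in the controls (1.91 ± 0.45, limma adjusted p = 0.0435), and the call was lost in 6 of 12 other settings and 5 of 6 fits that leave out a library. In the authors' deposited table the q of anr-17 was 0.706. That table called anr-48 (q = 0.0102), which averaged under 1 FPKM and was not tested here. It had 1, 9 and 3 fragments in the libraries labelled prx-5 RNAi, against 0, 0 and 0 in the controls. The long non-coding RNA tts-1, known to be abundant in dauer larvae and in long-lived daf-2 mutants, had 615, 940 and 903 FPKM in the libraries labelled prx-5 RNAi, against 87.0, 102 and 107 FPKM in the controls (3.02 ± 0.21, limma adjusted p = 0.00302). The rncs-1 RNA, a highly base-paired RNA known to rise in starvation, had 55.3, 52.3 and 56.7 FPKM in the libraries labelled prx-5 RNAi and 37.5, 31.2 and 29.2 FPKM in the controls (0.74 ± 0.15, limma adjusted p = 0.0309). The call of rncs-1 held in 9 of 12 other settings and in 1 of 6 fits that leave out a library (adjusted p up to 0.119 in limma), and that of tts-1 held in all of both. Both were higher in 3 of 3 libraries labelled prx-5 RNAi, and a difference between these 2 genes and the linc- loci was not tested.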

How the data were processed

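RNA of whole adult worms was sequenced in 6 libraries, and the members and lists were chosen with earlier results of these data known. Per the file headers, the deposited tables give FPKM per locus and library, and the authors' comparison table adds a log2 fold change, a test score, a p-value and a q-value. CASAVA, Bowtie, Cufflinks and Cuffdiff are named per the submitters' processing notes. Versions, genome build, annotation, RNA selection and filters are not given in the sources used here. Coordinates are those of the tables with starts counted from 1, and 15112 of 15397 loci matched by identifier overlapped their gene in WBcel235.

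Loci whose label differed between tables (913, among them 7 rows with a linc- symbol), or whose group value was not the scaled mean of its libraries within 2% (97), were left out, and 14786 were used. FPKM were changed to log2 with a pseudocount of 1, and the 13347 loci that averaged 1 FPKM or more were tested with limma 3.58.1 in R 4.3.3 (variance trend, Benjamini-Hochberg over all loci, called under 0.05), after the fit was tested on simulated data. Whole fragments came out at 42.1% of loci. Exact 95% intervals of their ratio take relative depth as known and cover counting error only, and total depth is unknown.

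Members named are those called by limma or the authors, the 8 with the highest mean FPKM, the 8 with separate groups but no call, and their neighbours. The members linc-5, linc-41, linc-50, linc-63, linc-72, linc-75 and linc-143 were partly chosen after their values were seen. Alternatives were pseudocounts, filters, scalings, no variance trend, a replicate block, sample weights, all loci as listed and leaving out each library. Recovered fragments and a length limit of 200 bp were added after seeing the data.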

Additional observations from a re-analysis of the deposited data

How the results depend on the processing

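The fall of linc-21 passed the limma test in all 13 settings other than leaving out a library (adjusted p 0.00124 to 0.0290) and in 3 of the 6 fits without a library, while linc-83, linc-29 and the first linc-77 locus passed in 9, 8 and 7 of 12 settings. The number of linc- loci called was 4. It was 2 with a mean of at least 5 FPKM (6.9% of members tested, against 10.9% of all loci), where 7 had separate groups. It was 2 under the authors' constants (3.92%, against 5.35%) and 1 under median-ratio scaling (1.96%, against 3.64%). Under quantile normalization it was 1 (1.96%, against 5.77%), with a median fold change of -0.157. It was 12 with sample weights (23.5%, against 30.7%) and 2 on recovered fragments (4.65%, against 4.88%). Over all loci the calls were 714, 487, 770, 4104 and 269 under the authors' constants, median-ratio scaling, quantile normalization, sample weights and recovered fragments, and the share of calls that were higher was 73.1%, 76%, 69%, 65.7% and 91.1%, against 86.2%. The authors' constants moved the median of all loci to -0.08. Neighbours called numbered 3 under each of these scalings, 28 with sample weights and 2 on recovered fragments. Called anr- loci numbered 0 with pseudocounts of 0.1 and 0.5, a mean of at least 5 FPKM, the 3 scalings and recovered fragments, and 3 with sample weights. With the replicate block, 5 linc- loci (linc-29 lost, linc-64 and linc-145 gained), 2 anr- loci and 1253 of all loci were called. Whether the numbers pair the libraries cannot be settled with 3 libraries per group. Same-numbered libraries had correlations of 0.290, 0.232 and -0.117 in their deviations from the group means, and differently numbered ones ran from -0.446 to 0.33. Leaving out a library gave 0 to 6 linc- calls (0% to 11.3% of members tested) and 78 to 1848 calls over all loci (0.579% to 13.8%). It gave median fold changes of -0.00466 to 0.294, with 0 to 10 neighbours and 0 to 1 anr- loci called. Separate groups were then found at 15 to 21 members, and a group of 2 libraries separates more easily than 1 of 3. The share of all loci with separate groups was not taken in these alternative fits. None of the linc- loci were called without prx-5 replicate 3, control replicate 1 or control replicate 3. In these fits an unadjusted limma p under 0.05 was reached by 11 of 52, 11 of 51 and 10 of 52 members. Over all loci it was reached by 2152 of 13118, 2271 of 13475 and 2391 of 13477. Signs reversed at uncalled loci: linc-157 reached 0.001276 under quantile normalization, and linc-135 -0.353 with sample weights. Leaving out a library moved linc-135 between -0.351 and 0.557, linc-30 between -0.636 and 0.153, linc-168 between -0.559 and 0.981 and linc-128 between -0.0716 and 0.915. The cause of these shifts was not tested.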
